A study of Mus musculus with 8 samples.

Results

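The proteasome is the barrel-shaped protease that degrades ubiquitin-tagged proteins, and 49 of the 12701 genes in the expression table carry its gene names (symbols beginning Psma, Psmb, Psmc, Psmd, Psme, Psmf or Psmg and followed by a digit). The members were taken by symbol alone, but the family was chosen with earlier results of these data known. Expression was measured by RNA sequencing in alveolar macrophages, which live in the airspaces of the lung, sorted from C57BL/6 mice. The groups were 3 naive libraries from mice without tumor, 2 libraries labelled d15 and 3 labelled d35. Both tumor-bearing groups had received KP or KP-GFP cells, a mouse lung tumor line, through the tail vein, so tumors arose from an injected line in otherwise wild-type mice. The growth protocol names a harvest period that ends before day 35, so the later time is uncertain. Whether each library stands for its own animal is not stated, and p-values therefore measure the spread between libraries, which may be technical.

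The libraries held 27465745 to 39572173 reads in the table. All 13 alveolar macrophage marker genes looked for were in the table, with summed levels of 25770 to 33240 scaled CPM (CPM after the authors' scaling) in naive libraries, 35050 to 39770 in d15 libraries and 36110 to 50140 in d35 libraries. Of the 13, 4 were higher and 1 lower at d35 than in naive (limma adjusted p under 0.05; 9.86% and 6.32% of all genes tested). All 49 members passed the filter on low values and were tested. Library naive 1 gave the lowest value of 39 of the 49 members (79.6%, against 17.5% of all genes tested), and library d35 3 gave the highest value of 30 of them (61.2%, against 17.2%). For d35 against naive, call counts, group averages, counts of separated groups and mean ratios are therefore also given without these libraries. For d15 against naive, call counts, group averages and counts of separated groups are also given without naive 1.

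As background, the 20S core is made of stacked rings of alpha subunits, which gate the entry, and beta subunits, 3 of which cut peptide bonds (Psmb5, Psmb6 and Psmb7). Interferon gamma induces a replacement set (Psmb8, Psmb9 and Psmb10) that forms the immunoproteasome, and the PA28 cap (Psme1 and Psme2), and both favour peptides suited to MHC class I presentation. The 19S particle, built of Psmc ATPases and Psmd subunits, recognizes and unfolds ubiquitinated proteins. Immune cells, macrophages included, carry immunoproteasomes at rest. By role the members fell into 7 alpha ring genes, 7 constitutive beta ring genes, 6 ATPases and 11 non-ATPase base and lid genes, which together make 31 constitutive subunits, and 5 interferon-inducible genes. The remaining 13 were 4 assembly chaperones of the 20S core, 3 of the 19S base, 2 other activators, 1 inhibitor and 3 other genes with such a symbol (Psma8, Psmc3ip and Psme2b).

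The inducible Psmb9 and Psmb8 lie beside the peptide transporter genes in the MHC region of chromosome 17, in the order Psmb9, Tap1, Psmb8 and Tap2 (RefSeq, GRCm38.p6). The starts of Psmb9 and Tap1 face away from each other across 225 bases, and 969 bases separate the end of Tap1 from the start of Psmb8. The constitutive genes for the same catalytic positions lie apart from each other, Psmb5 at chr14:54614119-54618022, Psmb6 at chr11:70525367-70527858 and Psmb7 at chr2:38588036-38644087 (GENCODE vM21, mm10). RefSeq sequence at the starts of 4 of these genes is shown with the motif match found there, as a description of letters only. GENCODE places transcripts over the upstream sequence of Psmb9 and Psmb8. The RefSeq gene Psmb6 begins at chr11:70525324, ahead of the start used for its window, so the stretch with its motif lies inside the gene. Only 30 bases around the motif are shown for these 3 genes, and the Psmb5 stretch stops 28 bases before the RefSeq start.
Psmb9 (chr17:34187331-34187360, minus strand), with the CCAAT box on the reverse strand in capitals: cctgcaccgcgcgcagccgctgATTGGaaa
Psmb8 (chr17:34198087-34198116, plus strand), with the STAT site core in capitals: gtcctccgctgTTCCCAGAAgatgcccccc
Psmb5 (chr14:54618023-54618245, minus strand), with the antioxidant response element (ARE) core in capitals: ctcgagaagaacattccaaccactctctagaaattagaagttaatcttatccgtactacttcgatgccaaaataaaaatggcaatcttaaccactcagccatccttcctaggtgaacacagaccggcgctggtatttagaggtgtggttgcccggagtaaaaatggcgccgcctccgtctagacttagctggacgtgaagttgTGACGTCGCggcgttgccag
Psmb6 (chr11:70525327-70525356, plus strand), with the ARE core in capitals: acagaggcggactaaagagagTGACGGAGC

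The 4 motifs were searched on both strands in windows of 250 bases before to 50 bases after each RefSeq start, and 41 of the 49 members had a window. The STAT site core, TTCNNNGAA, was present in 3 of these members (7.32%) and in 8.30% of all 32851 windows. The interferon-stimulated response element (ISRE) core, searched as a pair of GAAA repeats 2 bases apart, was present in 5 members (12.2%) and in 3.44% of all windows. Among the 5 inducible genes Psme1 held it, where it lay 9 to 18 bases after the start. Of 25 constitutive subunits with a window, 2 held it. The ARE core, TGACNNNGC, was present in 6 members (14.6%) and in 12.4% of all windows. No inducible gene held it, but 5 windows are too few to read a difference from that share. The CCAAT box was present in 14 members (34.15%) and in 37.4% of all windows. It was present in 10 of 25 constitutive subunits and in 1 of 5 inducible genes, Psmb9. The 4 motif patterns were not checked for overlap with each other's matches, and a match describes letters only.

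At d35 the 5 inducible genes were all higher than in naive macrophages, by 1.33-fold to 1.55-fold. Psmb8, the inducible counterpart of Psmb5, had 75.3, 83.9 and 91.1 scaled CPM in naive libraries, 104 and 106 in d15 libraries and 128, 112 and 151 in d35 libraries. Every d15 and d35 library lay above every naive one, and every d35 library lay above both d15 libraries. The d35 to naive difference was 0.63 ± 0.11 on the log2(value + 1) scale (SE, limma adjusted p = 0.00569), the largest among the 49 members. Psmb9, the inducible counterpart of Psmb6, had 41.7, 42.6 and 44.8 scaled CPM in naive libraries, 54.7 and 55.6 in d15 libraries and 69.1, 54.7 and 71.3 in d35 libraries. The naive libraries lay close together and below the rest, while library d35 2 lay at the level of d15. Its log2 difference between d35 and naive was 0.58 ± 0.10 (SE, limma adjusted p = 0.00574).

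Psmb10, the inducible counterpart of Psmb7, had 77.4, 83.2 and 86.7 scaled CPM in naive libraries, 96.6 and 102 in d15 libraries and 107, 92.3 and 134 in d35 libraries. It was the least stable of the inducible genes, with the lowest d35 library only just above the highest naive one. Its log2 difference between d35 and naive was 0.41 ± 0.12 (SE, limma adjusted p = 0.0386), and the call was kept under 7 of 16 alternative settings. It was lost when any 1 of the 3 naive libraries, either d15 library, d35 1 or d35 3 was left out. In this shared-spread fit, leaving out a library of 1 group also changes the spread used for the other comparison.

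The PA28 genes had similar patterns over the libraries. Psme1, the alpha subunit of the cap, had 85.8, 92.6 and 100.3 scaled CPM in naive libraries, 122 and 124 in d15 libraries and 128, 119 and 154 in d35 libraries. Psme2, the beta subunit, had 81.6, 86.0 and 96.0 scaled CPM in naive libraries, 120.3 and 125 in d15 libraries and 132, 116 and 161 in d35 libraries. In both genes all tumor-bearing libraries lay above all naive ones, and the d15 values fell within the d35 range. The log2 difference between d35 and naive was 0.51 ± 0.10 for Psme1 (SE, limma adjusted p = 0.00825) and 0.62 ± 0.11 for Psme2 (SE, limma adjusted p = 0.00621). The neighbours Psme1 and Psme2 lie on chromosome 14, 5912 bases apart in RefSeq.

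**Figure D1:**
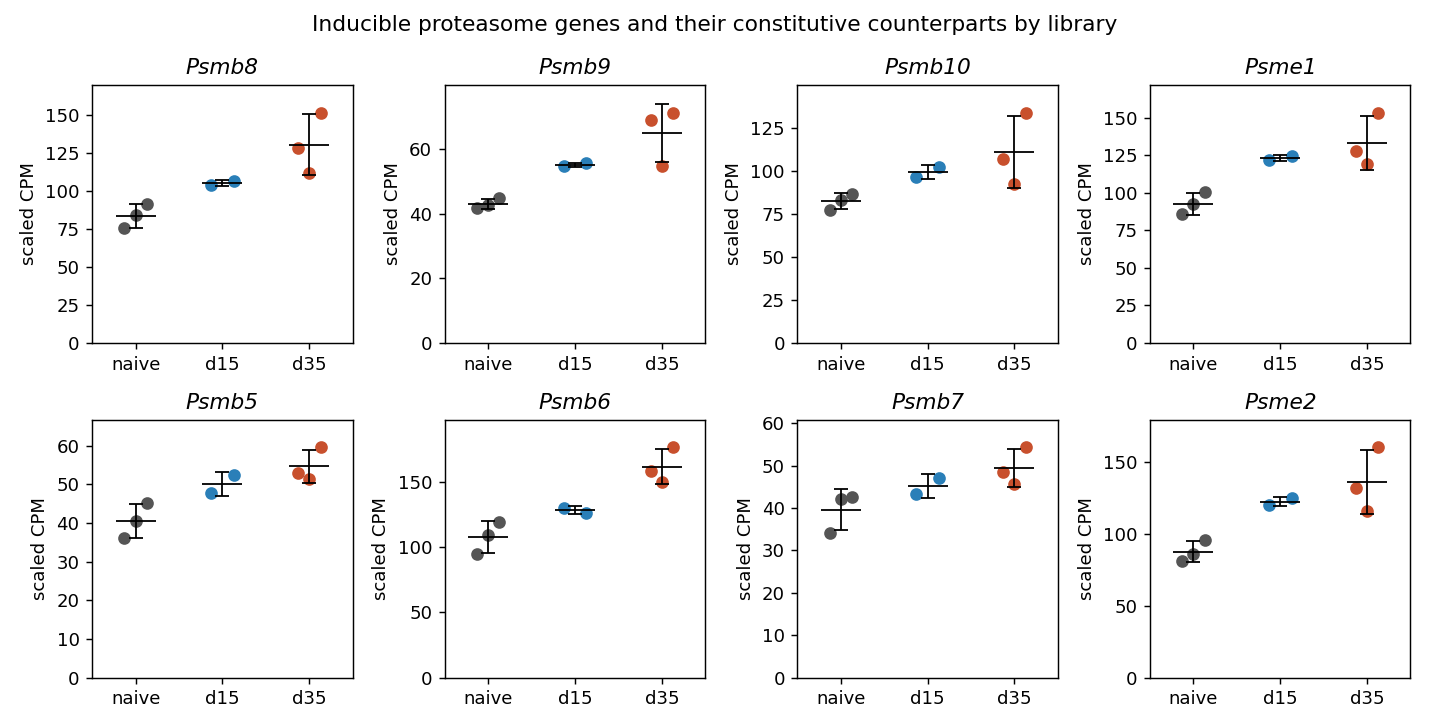
Level of the 5 inducible genes and of the 3 constitutive catalytic subunits in each library, in scaled CPM (y axis, from 0), for naive, d15 and d35 macrophages; points are libraries, wide bars the group mean and whiskers the SD (n = 3, 2 and 3). Psmb8 reached 128, 112 and 151 in d35 libraries against 75.3, 83.9 and 91.1 in naive ones, and Psmb6 rose beside it.

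At d15 none of the 5 inducible genes passed the limma test, although 4 of them had an unadjusted p under 0.05 (2954 of 11273 among all genes tested) and all 5 had both d15 libraries above every naive library (25.9% of all genes tested). The log2 differences between d15 and naive were 0.33 for Psmb8 (limma adjusted p = 0.118), 0.35 for Psmb9 (0.084), 0.27 for Psmb10 (0.22), 0.41 for Psme1 (0.0575) and 0.48 for Psme2 (0.0523). The quasi-likelihood test of edgeR called none of the 5 and DESeq2 called Psme1 and Psme2 (adjusted p = 0.0189 and 0.0106). In the authors' deposited table of d15 against naive, Psme2 had a false discovery rate of 0.0157.

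Constitutive genes were higher at d35 as well. Of the 49 members, 24 were higher at d35 than in naive macrophages and none was lower, where 9.86% of all genes tested were called higher and 6.32% lower. All 3 inducible catalytic genes, both PA28 genes, 6 of 7 alpha ring genes and 6 of 7 constitutive beta ring genes were among them. The 19S particle contributed fewer, with 2 of 6 ATPases and 3 of 11 base and lid genes. The remaining calls were 1 of 3 base chaperones and 1 of 4 chaperones of the 20S core. Regardless of the test, the d35 libraries all lay above the naive ones in 39 of 49 members (20.7% of all genes tested) and all below them in none (15.9%). Levels in bulk RNA are relative to library size, so a change in the amount of RNA per cell and a change in the share of cells of a kind cannot be told apart.

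Psmb6, which cuts after acidic residues in the standard proteasome, had the smallest adjusted p of all members. Its levels were 95.1, 109 and 120 scaled CPM in naive libraries, 131 and 126 in d15 libraries and 158, 150.3 and 177 in d35 libraries. The 3 groups did not overlap. The log2 difference between d35 and naive was 0.58 ± 0.09 (SE, limma adjusted p = 0.00388), the same size as that of its inducible counterpart Psmb9. Psmb5, the chymotrypsin-like subunit, had 36.1, 40.5 and 45.0 scaled CPM in naive libraries, 47.8 and 52.3 in d15 libraries and 53.0, 51.3 and 59.6 in d35 libraries. The lowest d35 library lay below the higher d15 library but above every naive one, and the d35 to naive log2 difference was 0.42 ± 0.10 (SE, limma adjusted p = 0.0194). Psmb7, the trypsin-like subunit, had 34.0, 42.2 and 42.6 scaled CPM in naive libraries, 43.3 and 47.1 in d15 libraries and 48.5, 45.6 and 54.3 in d35 libraries. Library naive 1 lay apart from the other naive libraries, and the d35 to naive log2 difference of 0.32 did not pass (limma adjusted p = 0.0643).

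The non-catalytic subunits of the beta ring, which hold the catalytic ones in place, followed at similar size. Psmb4 was 1.39-fold higher at d35 than in naive macrophages (limma adjusted p = 0.00826), with 91.5 ± 6.49 scaled CPM at d35 and 65.6 ± 6.72 in naive (SD, n = 3 each). Psmb1 was 1.31-fold higher, Psmb2 1.33-fold and Psmb3 1.30-fold, with Psmb3 at the edge of the threshold (limma adjusted p = 0.04999). In the alpha ring, Psma5 had the smallest adjusted p (0.0089, limma) and the largest change, 1.41-fold. It had 45.8, 49.2 and 55.1 scaled CPM in naive libraries, 65.0 and 70.5 in d15 libraries and 70.4, 64.5 and 78.8 in d35 libraries, so the tumor-bearing groups overlapped each other but not the naive group. The other alpha calls were Psma1 (1.25-fold), Psma2 (1.28-fold), Psma4 (1.30-fold), Psma6 (1.32-fold) and Psma7 (1.39-fold), while Psma3 had a log2 difference of 0.35 and an adjusted p of 0.0638. Per kilobase of transcript the mean levels of the alpha ring genes ran from 28.2 scaled CPM for Psma3 to 212 for Psma1, while their log2 differences between d35 and naive spanned 0.33 to 0.50.

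The 19S genes had smaller differences than the 20S core, a contrast that was not tested. The median log2 difference between d35 and naive was 0.23 over the 17 ATPase, base and lid genes and 0.39 over the 14 constitutive core genes, beside -0.002 over all genes tested. After the transcript length correction described below, these medians were 0.13 for the 19S genes and 0.19 for the core genes, so the gap narrowed. Among the ATPases, which thread substrates into the core, Psmc5 had the smallest adjusted p (0.0181, limma) and was 1.21-fold higher at d35, with 118 ± 2.15 scaled CPM at d35 and 97.3 ± 2.91 in naive (SD, n = 3 each). Psmc4 was 1.19-fold higher, and the 4 others had log2 differences of 0.11 to 0.24 and did not pass. Among the base and lid genes, Psmd8 was 1.28-fold higher (limma adjusted p = 0.0227), with 198 ± 14.9 scaled CPM at d35 and 155 ± 15.9 in naive (SD, n = 3 each). Psmd6 was 1.22-fold higher and Psmd13 1.17-fold (adjusted p = 0.0497). The large scaffold subunits Psmd1, Psmd2 and Psmd3 had small differences, with log2 differences of 0.07, 0.16 and 0.03 at d35 that did not pass. Psmd14, the deubiquitinase that removes the ubiquitin chain, had a log2 difference of 0.26 (adjusted p = 0.0557), and Psmd4, a ubiquitin receptor, one of 0.16.

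Of the 7 assembly chaperones, 2 were higher at d35. Psmd10, also known as gankyrin, was 1.25-fold higher at d35 (limma adjusted p = 0.0233), with 57.3 ± 3.85 scaled CPM at d35 and 45.7 ± 1.63 in naive (SD, n = 3 each). Its partners in base assembly, Psmd5 and Psmd9, had log2 differences of 0.15 and 0.22 that did not pass. Psmg3, which with Psmg4 builds the alpha ring, was 1.38-fold higher (limma adjusted p = 0.0332) with 11.2 ± 1.36 scaled CPM at d35 and 7.82 ± 0.747 in naive (SD, n = 3 each). Psmg1, Psmg2 and Psmg4 had log2 differences of 0.36, 0.23 and 0.42 and did not pass.

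The activators other than PA28 and the inhibitor lay close to their naive levels. Psme3, the nuclear PA28 gamma, had 187, 187 and 189 scaled CPM in naive libraries, 182 and 174 in d15 libraries and 189.8, 188 and 175 in d35 libraries. Its naive libraries were nearly equal, both d15 libraries lay below them, the d35 and naive groups overlapped, and the d35 to naive log2 difference was -0.03 (limma adjusted p = 0.792). Psme4, which encodes the PA200 activator, had a difference of 0.04 (adjusted p = 0.831). Psmf1, the PI31 protein first described as an inhibitor of the core, had 40.8, 42.7 and 47.8 scaled CPM in naive libraries, 40.6 and 39.2 in d15 libraries and 41.8, 40.5 and 38.8 in d35 libraries. The d35 to naive log2 difference was -0.11 (adjusted p = 0.386), with overlapping groups. At d35 none of these 3 genes had an unadjusted p under 0.05 in limma (3654 of 11273 among all genes tested), and neither edgeR nor DESeq2 called any of them.

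Of Psma8, Psmc3ip and Psme2b, none was called at d35 by limma, edgeR or DESeq2, and 1 had an unadjusted p under 0.05 in limma. That gene was Psme2b, an intronless copy of Psme2, at 8.18 ± 0.0616 scaled CPM at d35 and 6.29 ± 0.555 in naive (SD, n = 3 each). How reads shared with Psme2 were counted is not given in the sources used here, so its level is uncertain. Psma8, an alpha subunit known from testis, held 6.50 to 8.57 scaled CPM over all libraries, and Psmc3ip, a recombination factor and not a subunit, 1.84 to 3.41.

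**Figure D2:**
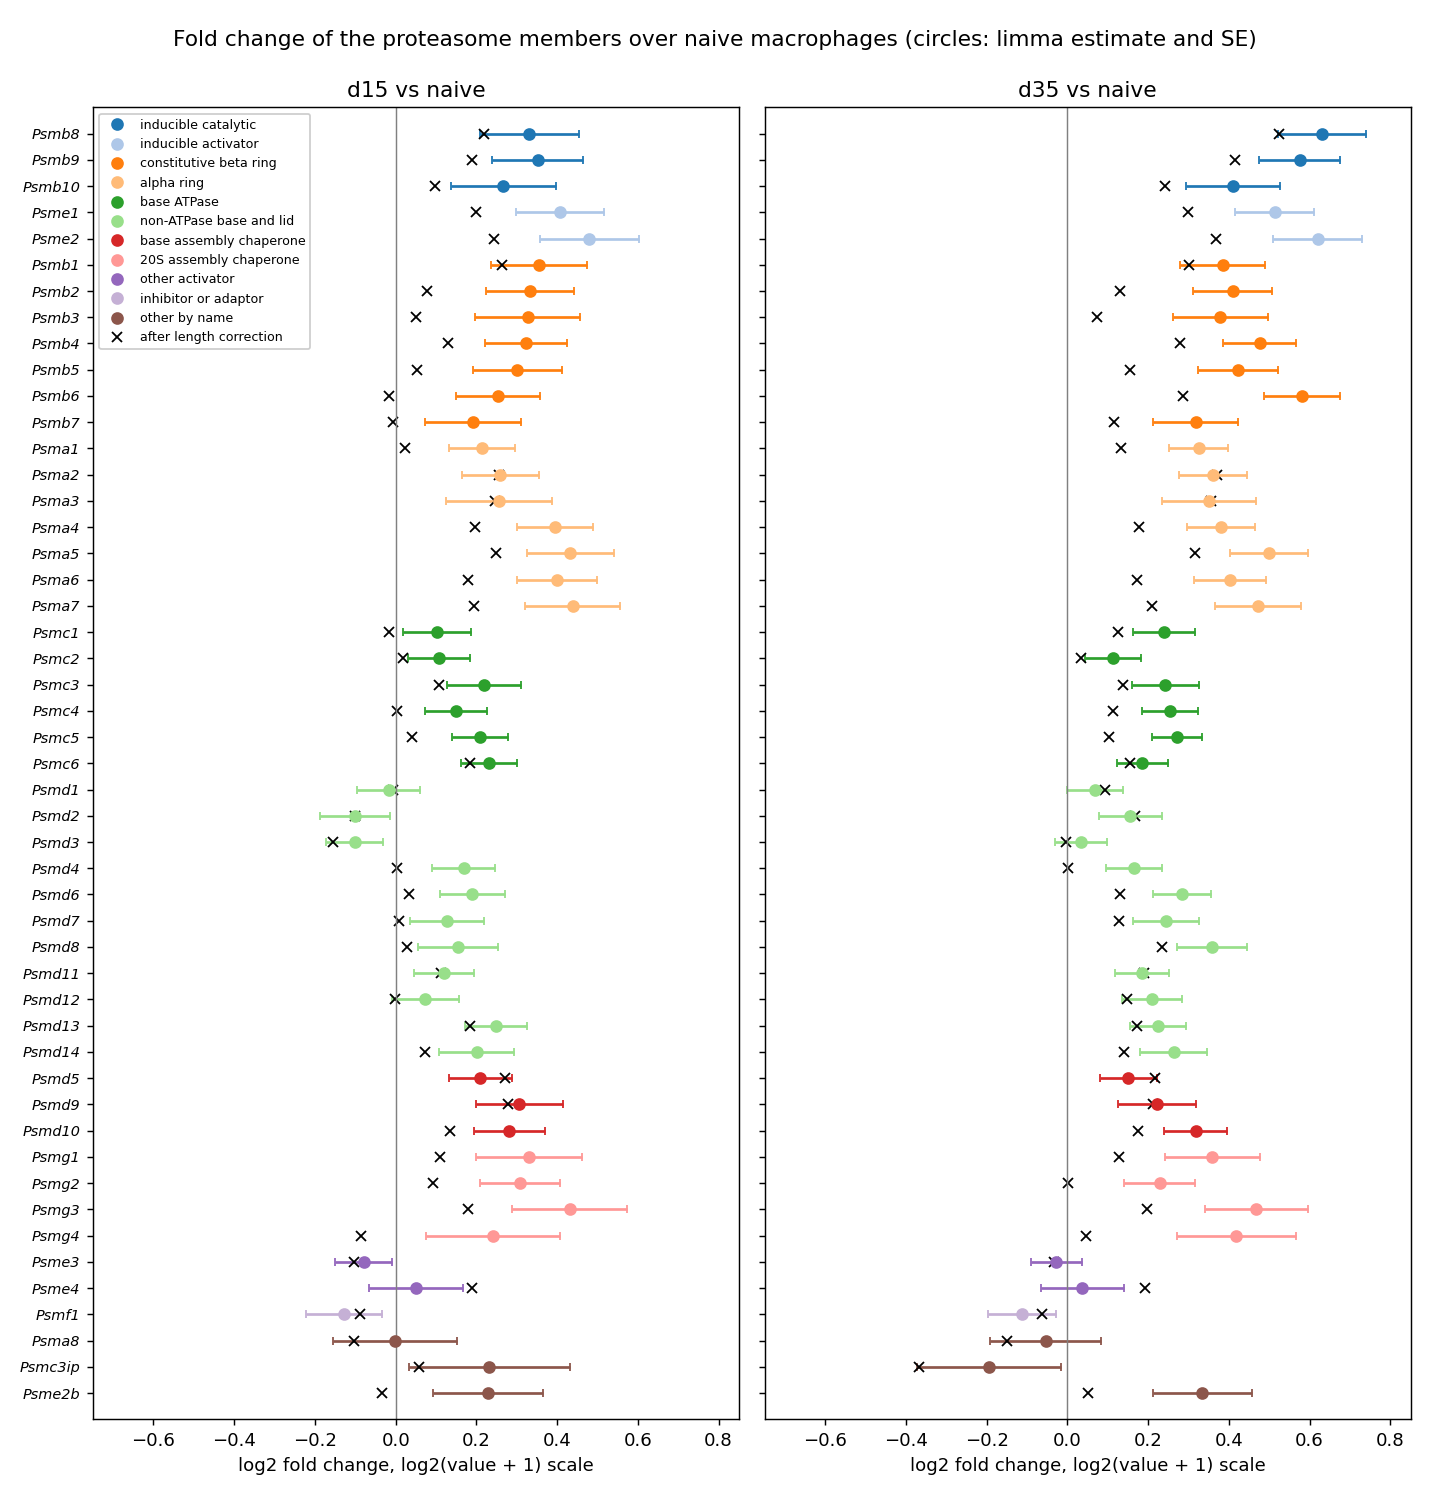
Log2 fold change of each of the 49 members (rows, grouped and coloured by role) for d15 against naive (left) and d35 against naive (right); circles and whiskers are the limma estimate and its SE, and crosses the estimate after the transcript length correction. At d35 Psmb8 lies furthest right, at 0.63, followed by Psme2 (0.62) and the constitutive Psmb6 (0.58), while Psme3, Psme4 and Psmf1 lie near 0; most crosses lie left of their circles.

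At d15 the members lay higher than in naive macrophages but few passed. Limma called 3 members higher and none lower, where 2.37% of all genes tested were called higher and 2.0% lower. All 3 were alpha ring genes, and all 3 calls were lost without naive 1, where 231 of all genes tested were called. Psma4 was 1.31-fold higher (limma adjusted p = 0.0449), with 144 ± 9.44 scaled CPM at d15 (n = 2) and 109.5 ± 10.0 in naive (SD, n = 3). Psma6 was 1.32-fold higher (adjusted p = 0.0487) and Psma5 1.35-fold (adjusted p = 0.0497). Both d15 libraries lay above every naive library in 40 of 49 members (25.9% of all genes tested) and below in 4 (22.3%). Without naive 1 they lay above in 40 members as well, beside 32.2% of all genes tested. The median log2 difference was 0.33 over the 14 constitutive core genes and 0.15 over the 17 genes of the 19S particle, beside 0.01 over all genes tested. Without naive 1 the medians were 0.26 and 0.10, and after the transcript length correction 0.16 and 0.02, core genes first.

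The d15 calls were weakly held. Psma4 was called under 7 of 15 alternative settings, and Psma5 and Psma6 under 5 each, and edgeR called no member while DESeq2 called 7 higher (6.09% of all genes tested). In the other roles the smallest adjusted p at d15 was 0.0814 in the beta ring (Psmb4), 0.0753 among the ATPases (Psmc6), 0.0807 among the base and lid genes (Psmd13), 0.0808 among the base chaperones (Psmd10) and 0.0852 among the core chaperones (Psmg2). It was 0.315 for Psme2b, 0.422 for Psmf1 and 0.507 for Psme3, the last pair lower in d15 libraries by estimate. In the authors' deposited table, whose log2 fold changes run d15 over naive, 43 of the 49 members had a positive value and 4 had a false discovery rate under 0.05, Psma4, Psma6, Psma7 and Psme2. That table gave 3.61% of its genes such a rate.

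Between the tumor-bearing groups limma called none of the 49 members, where 4.59% of all genes tested were called higher at d35 and 2.8% lower. An unadjusted p under 0.05 in limma was reached by 3 members, beside 2509 of 11273 among all genes tested. EdgeR called none and DESeq2 called 2 higher (7.5% of all genes tested). Psmb6 had the smallest adjusted p, with 162 ± 13.5 scaled CPM at d35 (n = 3) and 128 ± 2.98 at d15 (SD, n = 2), a log2 difference of 0.33 (limma adjusted p = 0.0863; DESeq2 adjusted p = 0.0333). Psmd2, a scaffold of the base, had 372 ± 33.8 scaled CPM at d35 (n = 3) and 310.4 ± 2.93 at d15 (SD, n = 2), a log2 difference of 0.26 (limma adjusted p = 0.106; DESeq2 adjusted p = 0.0367). Among the inducible genes Psmb8 had a log2 difference of 0.30 (limma adjusted p = 0.176), and only in it did all d35 libraries lie above both d15 libraries. The mean log2 difference of the 5 inducible genes between d35 and d15 was 0.18 with all libraries and 0.07 without d35 3, and that of Psmb8 was then 0.19. Without d35 2, in turn, limma called Psmb8 (log2 difference 0.40) and Psmb9 (0.34) higher, beside 676 of all genes tested in that fit. Over all members, d35 lay above d15 in every library in 13 of 49 (19.0% of all genes tested) and below in 2 (19.5%). In the other roles the member with the smallest adjusted p was Psma1 (0.479), Psmc1 (0.392), Psmd9 (0.719), Psme2 (0.564), Psmg4 (0.596), Psme3 (0.727), Psmf1 (0.95) and Psmc3ip (0.242).

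Levels moved with transcript length in these libraries, and most proteasome transcripts are short. The median transcript length was 1430 bases over the members and 3011 over the genes tested. Across genes, the correlation between log2 length and a gene's deviation from its mean over libraries was 0.331, 0.307 and 0.206 in naive libraries, -0.108 and -0.174 in d15 libraries and -0.122, 0.0117 and -0.329 in d35 libraries. Short transcripts thus lay relatively low in all naive libraries and highest in d35 3, the library with the highest value of most members. Genes are not independent replicates, and the correlations are given as descriptions with no p. Because the trend differed between naive and tumor-bearing libraries, a technical length effect and a group change that goes with length cannot be told apart. A correction for the trend removes both.

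After each library was corrected for that trend, 9 members were higher at d35 than in naive and none lower, where 6.76% of all genes were called higher and 3.59% lower. They were Psmb8, Psmb9, Psme1, Psme2, Psmb4, Psmb6, Psma2, Psma5 and Psmd5. The log2 difference of Psmb8 was then 0.52 (limma adjusted p = 0.00928), that of Psmb9 0.42 (0.0153), that of Psme2 0.37 (0.0128), that of Psme1 0.30 (0.0194) and that of Psmb10 0.24 (0.117). Psmb6 had 0.29 (0.027) and Psmb5 0.16 (0.169). The median over the 31 constitutive subunits was 0.15 after correction and 0.28 before it. At d15 the median was 0.05 after correction and 0.21 before it, and limma then called no member (1.69% of all genes called higher and 1.36% lower). An unadjusted p under 0.05 in limma was then found for 13 of the 49 members, beside 2446 of 11217 among all genes tested. Between d35 and d15 only Psmb6 was called after correction (adjusted p = 0.0363; 5.23% of all genes called higher and 3.05% lower).

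Leaving out libraries moved the d35 count most. Without naive 1 or without naive 2 the limma fit called 7 members, without d35 1 it called 14, without d35 3 it called 13 and without d35 2 it called 30. Over all genes tested, these fits called 907, 628, 1013, 980 and 2288 genes in that order, beside 1824 with all libraries. Psmb10 had a log2 difference between d35 and naive of 0.27 without d35 3. The d35 libraries lay above the naive ones in 40 members without naive 1 (25.4% of all genes tested) and in 42 without d35 3 (24.6%). The median of the constitutive core genes was 0.32 without naive 1 and 0.33 without d35 3, and that of the 19S genes 0.19 and 0.20. Under all 16 alternative settings 7 of the 24 calls were kept, Psmb8, Psmb9, Psme1, Psme2, Psmb4, Psmb6 and Psma5. This group holds 4 of the 5 inducible genes and 3 of the 31 constitutive subunits. How many of all genes tested kept their calls under every setting was not counted, so these counts are a description only.

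**Figure D3:**
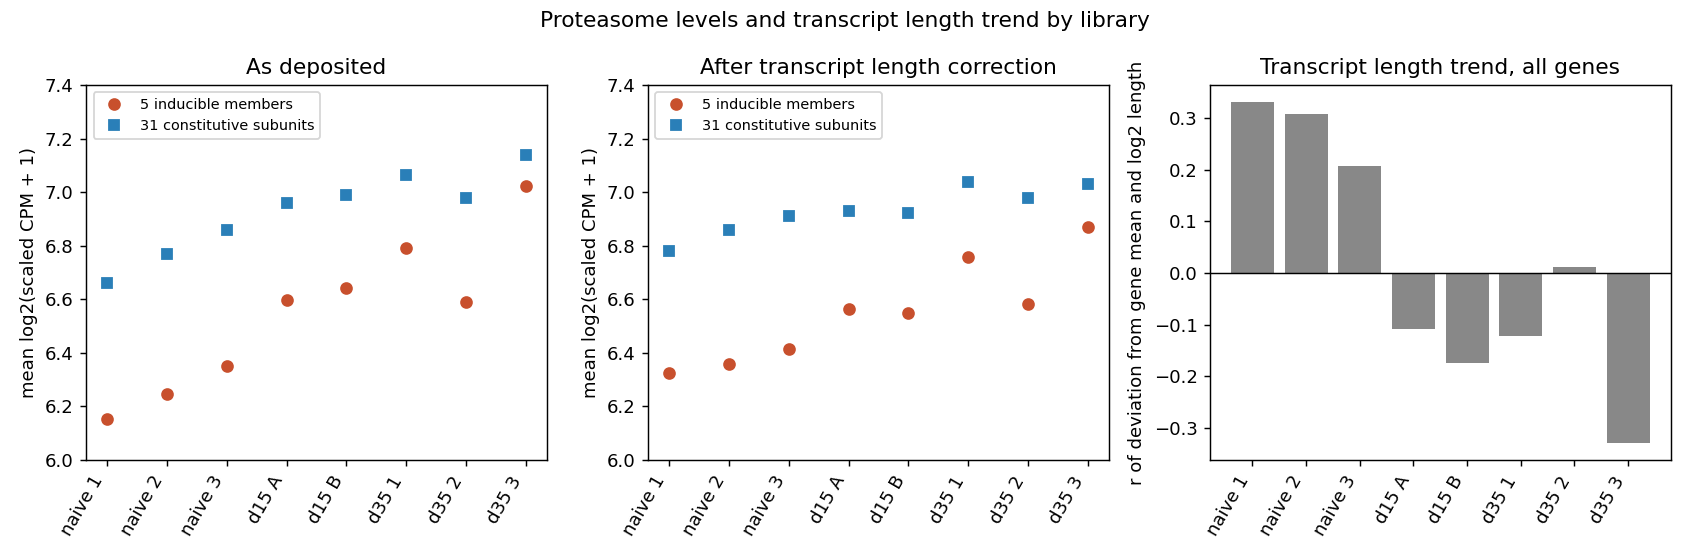
Mean log2(scaled CPM + 1) of the 5 inducible genes (circles) and the 31 constitutive subunits (squares) in each library as deposited (left) and after the transcript length correction (middle), and the correlation across all genes of each library's deviations with log2 transcript length (right). The naive libraries have correlations of 0.206 to 0.331 and the lowest means; library d35 3 has -0.329 and the highest inducible mean.

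The inducible genes had larger log2 differences than most constitutive subunits. Their mean log2 difference between d35 and naive was 0.55, against a mean of 0.30 over the 31 constitutive subunits, and 26 of the 31 lay below every inducible gene. The 2 means were 0.50 and 0.25 without naive 1 and 0.44 and 0.26 without d35 3. At d15 the means were 0.37 and 0.21, and 0.32 and 0.16 without naive 1. After the length correction the means were 0.37 and 0.17 at d35 and 0.19 and 0.08 at d15. The 31 include the ATPase, base and lid genes, whose differences were smaller on average. At d35 the mean was 0.54 for the inducible catalytic genes and 0.57 for Psme1 and Psme2. It was 0.40 in the alpha ring and 0.42 in the constitutive beta ring. At d15 these means were 0.32, 0.44, 0.34 and 0.30 in that order, so the inducible catalytic mean lay between those of the rings. After the length correction they were 0.39, 0.33, 0.25 and 0.19 at d35 and 0.17, 0.22, 0.19 and 0.08 at d15. Within a library, the mean log2 level of the inducible genes minus that of the constitutive subunits was -0.51, -0.52 and -0.51 in naive libraries, -0.36 and -0.35 in d15 libraries and -0.27, -0.39 and -0.12 in d35 libraries. The offset itself also carries the transcripts' lengths, so only its change between libraries can be read. The naive libraries agreed closely and lay below all others, whereas the d35 libraries were widely spread and overlapped d15. After the length correction the same quantity was -0.45, -0.50 and -0.49 in naive, -0.37 and -0.37 in d15 and -0.28, -0.39 and -0.16 in d35 libraries.

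For the catalytic subunits the comparison can be made position by position, as a ratio within each library. Per kilobase of transcript, the median Psmb8 to Psmb5 ratio was 1.14 in naive, 1.16 in d15 and 1.34 in d35 libraries. The Psmb10 to Psmb7 ratio was 1.80, 1.95 and 1.95 in the same order. At both positions the inducible transcript had the higher value per kilobase in naive macrophages already. The Psmb9 to Psmb6 ratio was 0.230, 0.254 and 0.238, with the constitutive transcript the higher per kilobase in every group. Such an order depends on the transcript length used for each gene. Short transcripts lay relatively low in all naive libraries, and Psmb5 has a shorter transcript than Psmb8. Which of Psmb8 and Psmb5 was the more abundant in naive macrophages is therefore not settled.

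No change of these ratios passed a test. The log2 ratio of Psmb8 to Psmb5 was 1.23 ± 0.11 at d35 and 1.02 ± 0.02 in naive (SD, n = 3 each), a difference of 0.21 with groups that did not overlap (exact two-sided permutation p = 0.1, the smallest that 3 against 3 allows; 0.72 adjusted over the 9 tests). For Psmb9 to Psmb6 the difference was -0.01 (exact permutation p = 0.9) and for Psmb10 to Psmb7 it was 0.09 (exact permutation p = 0.6), both with overlapping groups. The mean over the 3 positions differed by 0.10 between d35 and naive (exact permutation p = 0.2), by 0.07 between d15 and naive (exact permutation p = 0.4) and by 0.03 between d35 and d15 (exact permutation p = 0.8). Between d35 and naive it was 0.14 without naive 1 and 0.06 without d35 3. With 2 d15 libraries the smallest p is also 0.1, so no ratio could pass 0.05 in this design.

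**Figure D4:**
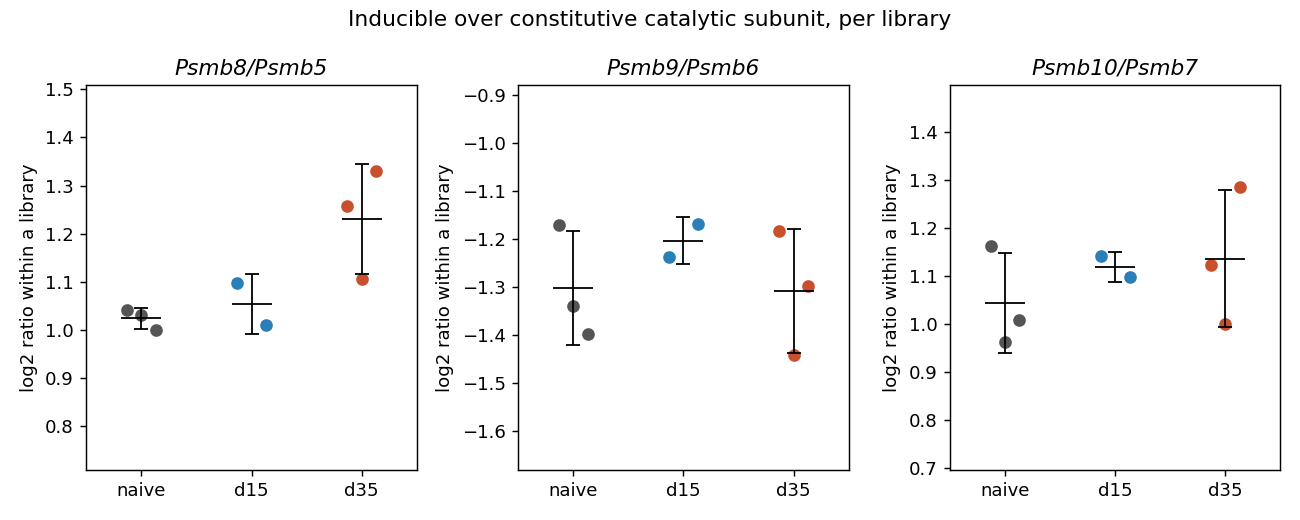
Log2 ratio of each inducible catalytic subunit to the constitutive subunit of the same position within each library (y axis, 0.8 log2 units in each panel), for naive, d15 and d35 macrophages; points are libraries, wide bars the group mean and whiskers the SD (n = 3, 2 and 3). Only in the Psmb8 to Psmb5 panel do all d35 libraries lie above all naive ones.

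Of 16 genes for partners of the proteasome, 4 were higher at d35 than in naive and none lower (9.86% and 6.32% of all genes tested), with a median log2 difference of 0.05. Pomp, the chaperone that matures the 20S core and has a role in immunoproteasome assembly, had 116 ± 14.5 scaled CPM at d35 and 76.2 ± 6.77 in naive (SD, n = 3 each), a log2 difference of 0.60 (limma adjusted p = 0.0045) and 0.48 after the length correction (0.00697). Txnl1, a thioredoxin-like protein bound to the 19S particle, rose by 0.33 (adjusted p = 0.0105), and it was the single partner called at d15, by 0.32 (adjusted p = 0.0439). The lid component Sem1 rose by 0.43 (adjusted p = 0.0274) and the stress factor Nfe2l2 by 0.30 (adjusted p = 0.0437). After the length correction Sem1 (adjusted p = 0.0639) and Nfe2l2 (0.065) were not called at d35, Txnl1 was (0.00742), and Ddi2, the protease that activates Nfe2l1, was called at d35 (0.40, 0.00685) and at d15 (0.46, 0.0166), a gene chosen after its values were seen. Nfe2l1, the transcription factor known to raise proteasome genes when proteasome activity is low, had 210, 209 and 198 scaled CPM in naive libraries, 181 and 173 in d15 libraries and 176, 207 and 147 in d35 libraries. It tended to lie lower in tumor-bearing libraries with overlap at d35, and its log2 difference was -0.23 (adjusted p = 0.156).

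The next smallest adjusted p values of the partner list at d15 were those of Pomp (log2 difference 0.40, adjusted p = 0.062) and Zfand2a (-0.30, 0.0815). Between d35 and d15 the smallest in that list were Ngly1 (-0.36, 0.0647), Nfe2l2 (0.34, 0.0648) and Uchl5 (-0.30, 0.104), and none passed. Among 26 genes of ubiquitin conjugation and shuttling, 1 was higher at d35, the ring ligase component Rbx1 (log2 difference 0.41, limma adjusted p = 0.0221), and 1 was lower, the very large ligase Huwe1 (-0.44, 0.0181), beside the same shares of all genes. After the length correction Huwe1 had -0.12 (adjusted p = 0.38) and Rbx1 0.31 (0.0449). Skp1a had a log2 difference of 0.26 at d35 (adjusted p = 0.0545). At d15 the smallest adjusted p of this list was 0.055, for Huwe1 (-0.43), followed by Skp1a (0.35, 0.0568) and the polyubiquitin gene Ubb (0.37, 0.0571). Between d35 and d15 it was 0.054, for the cullin Cul1 (-0.24), followed by the unfoldase Vcp (0.22, 0.0993) and the activating enzyme Uba6 (-0.25, 0.194).

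Of 24 genes of interferon gamma signalling and class I presentation, 12 were higher at d35 than in naive and none lower (9.86% and 6.32% of all genes tested), and the same count was found after the length correction (6.76% and 3.59%). The list's median log2 difference was 0.39. The heavy chain gene H2-K1, which has close copies whose shared reads make its level uncertain, had a log2 difference of 0.84 (limma adjusted p = 0.000301), the guanylate-binding protein gene Gbp2 1.36 (0.00061) and the chemokine gene Cxcl9 2.80 (0.000875). At d15 4 of the 24 were higher (2.37% of all genes tested), among them the receptor gene Ifngr1 (0.70, 0.0191), Cxcl9 (1.69, 0.0397) and H2-K1 (0.41, 0.0431). After the length correction 1 of the 4 was called at d15, Ifngr1 (adjusted p = 0.0273), while Cxcl9 (0.0535), H2-K1 (0.0992) and B2m (0.09), the light chain gene and the last of the 4, were not. Between d35 and d15, 7 were higher and 1 lower (4.59% and 2.8% of all genes tested), the lower being Ifngr1 (-0.58, 0.0193), and the smallest adjusted p belonged to Tap1 (0.60, 0.0133) and Irf8 (0.46, 0.014).

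Tap1, the transporter gene that shares its upstream region with Psmb9, had 48.6, 44.6 and 43.3 scaled CPM in naive libraries, 51.7 and 49.9 in d15 libraries and 87.3, 65.4 and 80.7 in d35 libraries. The d15 libraries lay only just above the naive ones, and the d35 libraries lay well above both. Its log2 difference was 0.75 between d35 and naive (limma adjusted p = 0.00189) and 0.16 between d15 and naive (adjusted p = 0.428), beside 0.58 and 0.35 for Psmb9. Nlrc5, the transactivator of class I genes, had 6.57, 9.35 and 10.3 scaled CPM in naive, 10.55 and 12.6 in d15 and 20.5, 17.7 and 19.96 in d35 libraries. The 3 groups did not overlap, and the d35 to naive log2 difference was 1.08 (adjusted p = 0.0023). Irf1, an interferon-responsive transcription factor known to drive Psmb9 and Tap1, had 59.1, 62.4 and 53.4 scaled CPM in naive, 73.1 and 76.1 in d15 and 108, 76.97 and 111 in d35 libraries, a d35 to naive log2 difference of 0.73 (adjusted p = 0.00569). Library d35 2 was the lowest d35 library for all 5 inducible genes, Tap1, Nlrc5 and Irf1. The constitutive subunits shared this, with a mean log2 level of 6.98 in d35 2, against 7.06 in d35 1 and 7.14 in d35 3.

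Over the 8 libraries, the genes outside the family whose log2 levels were most like the inducible mean were Spcs1, Hsd17b10, Cops9, Tmem14c, Txn1 and Pomp, with Pearson r of 0.994 to 0.995. The genes most like the constitutive mean were Ap2s1, Gcsh, Pomp, Ctss, Clic1 and Bccip, with r of 0.988 to 0.996. Pomp was the gene found on both lists. The inducible genes themselves had r of 0.927 (Psmb10) to 0.981 (Psme1) with the constitutive mean. The libraries share their group differences and the length trend, so these values are descriptions and carry no p.

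Markers of other cell types moved with the groups for some lists. Of 14 monocyte and interstitial macrophage markers, 9 were higher at d35 than in naive and none lower (9.86% and 6.32% of all genes tested). Their summed levels were 1483 to 2220 scaled CPM in d35 libraries and 1061 to 1327 in naive libraries. Of 12 endothelial markers, 8 were lower at d35, with sums of 173 to 227 scaled CPM in d35 libraries and 282 to 368 in naive libraries. The markers of T and NK cells, which carry immunoproteasomes at high level, were in the table for 14 of 16 genes (Trac and Trbc2 were not analysed here) and had sums of 366 to 429 scaled CPM in d35 libraries and 378 to 413 in naive libraries. Of 10 epithelial and tumor markers, 2 were higher and 1 lower at d35 than in naive. Their sums were 1206 to 1336 scaled CPM in d35 libraries and 1444 to 1447 in naive libraries. Against d15, 3 of them were higher and 1 lower at d35 (4.59% and 2.8% of all genes tested). Of 6 B cell markers found, 3 were lower at d35 than in naive and none higher. Of 8 dendritic cell markers 1 was lower, and of 5 neutrophil markers found 1 was higher. The part of any of these cell types in the proteasome differences was not tested.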

How the data were processed

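RNA from 8 libraries of sorted alveolar macrophages was sequenced after SMART-Seq low-input amplification, per the labels' protocols. The submitters' processing notes name STAR 2.5, mm10 and edgeR. How reads were counted, with which annotation and with or without strand, is not given in the sources used here. The deposited table holds a scaled signal per gene, called scaled CPM here, for 12701 genes. All values (100%) were whole reads within 0.001 under (reads + 0.5) divided by (scaled library size + 1). The authors' deposited table for d15 gives p-values, a likelihood-ratio score and log2 fold changes, per the file headers. In the expression table the d15 columns carry numbers that differ from the sample titles, so they were assigned to the group only and are called A and B.

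Limma 3.58.1 (R 4.3.3) with an intensity trend was fitted to log2(value + 1) of all 8 libraries for 11273 genes that reached a value of 1 in 2 or more libraries (residual df 5, prior df 5.72). This scale understates changes of low genes. Benjamini-Hochberg adjustment ran over all genes tested, with calls at 0.05. The length correction removed, per library, a smooth trend of each gene's deviation from its mean on log2 transcript length (GENCODE vM21), for 11217 genes. Ratios were compared by exact two-sided permutation tests over libraries. The fit was also run on simulated data without a length trend or an outlying library, and no result here rests on that run. On recovered reads, edgeR 4.0.16 called 417, 1760 and 827 genes (d15 against naive, d35 against naive, d35 against d15), and DESeq2 1.42.0 called 1451, 2412 and 1368. The members and lists were chosen with earlier results of these data known. Full values are given for the inducible and catalytic genes. In each other role the member with the smallest adjusted p and all called members are named. In each list the 3 smallest adjusted p per comparison are named, with Nfe2l1, Irf1 and Nlrc5; 1 further gene of the rule is not reported here. Tap1 by library, B2m, Ddi2, the scaffold subunits and further unchanged members were named after their values were seen.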

Additional observations from a re-analysis of the deposited data

How the results depend on the processing

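The direction of the inducible and constitutive averages was kept under the alternatives tried (pseudocount 0.25, no filter, each library left out, only the groups compared, length correction, limma-voom, edgeR, DESeq2). Members called at d15 (3 by limma) numbered 1 with no filter, 12 with only the groups compared, 0 after length correction, with limma-voom and with edgeR, 7 with DESeq2, and 0 to 8 with a library left out. Members called at d35 (24) numbered 9 after length correction and 7 to 30 with a library left out. Between d35 and d15 (0) they numbered 1 after length correction, 2 with DESeq2 and 0 to 2 with a library left out. The 2 found with a library left out were Psmb8 and Psmb9, without d35 2. Over all genes, the 493 calls at d15 became 1454 with only the groups compared, 1451 with DESeq2 and 11 to 1084 with a library left out. The 1824 at d35 became 1161 after length correction and 628 to 2288 with a library left out. The 833 between d35 and d15 became 411 with only the groups compared, 1368 with DESeq2 and 184 to 1046 with a library left out. Length correction moved the constitutive median to 0.050 at d15 and 0.15 at d35, and the inducible mean to 0.19 and 0.37; it turned the d15 differences of Psmb6 and Psmb7 to -0.016 and -0.0060. The mean ratio difference between d35 and d15 of 0.030 was -0.013 without d35 3, and -0.013 to 0.096 with a library left out. The cause was not tested, save that leaving out libraries reduces the samples.

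The share of all-gene calls that were higher was 54.2% at d15, where it ran from 47.3% with DESeq2 and 48.6% without d35 1 to 72.7% without d15 B, and 61.0% at d35 and 71.8% without naive 2. Naive and d35 libraries with the same number did not deviate together (r = -0.01, -0.05 and 0.15). With the replicate block, which joins naive and d35 libraries by number only, 20 members and 1461 genes were called at d35. The labels state no pairing of libraries. No such block was fitted for the d15 comparisons, where the d15 columns carry other numbers than the titles. The number of libraries, 3, 2 and 3, limits the precision of every value here.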
